A study of Mus musculus with 9 samples.

Results

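Mpo, Prtn3 and Ctsg encode myeloperoxidase, proteinase 3 and cathepsin G, which neutrophils carry in their primary (azurophil) granules. These 3 genes, of 2810 genes listed in at least 1 of the deposited tables, were chosen by name as granule genes and selected on their measured levels in these libraries, so their differences between groups are given as a description without a test. RNA was sequenced from endothelial progenitor cells (EPCs) of bone marrow from C57BL/6J mice at 8 weeks of age, in 3 libraries per group and 9 libraries in all. M-EPCs came from males, F-EPCs from females and OVX-EPCs from females whose ovaries had been removed at around 35 days of age. Marrow was depleted of cells with lineage markers, sorted with magnetic beads for Sca-1 and CD31, and grown in EGM-2, an endothelial growth medium; the labels also call the cells freshly isolated. The number of mice behind a library is not given in the sources used here, and the study calls the libraries of a group biological replicates without saying whether they were separate mice or cultures.

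Primary granules form at the promyelocyte stage, when the granulocyte lineage is still dividing and before the specific and gelatinase granules are made. Myeloperoxidase is a heme enzyme that makes hypochlorous acid from hydrogen peroxide and chloride. Proteinase 3 and cathepsin G are serine proteases that are made as inactive precursors, trimmed by cathepsin C and packed on the proteoglycan serglycin. Transcription of these genes is largely over before a neutrophil is mature, so in marrow their mRNA marks granulocyte precursors and the protein outlasts the mRNA. In bulk RNA, fewer cells of a type and less RNA per cell cannot be told apart.

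The 3 genes lie on different chromosomes. In the GENCODE annotation of GRCm38, Mpo lies on chromosome 11 from 87793581 to 87804413 on the plus strand with 14 exons. Prtn3 lies on chromosome 10 from 79874476 to 79883174 on the plus strand with 5 exons, and Elane, which encodes neutrophil elastase, begins 3073 bases after it. Ctsg lies on chromosome 14 from 56099881 to 56102574 on the minus strand with 5 exons, 14608 bases from the basophil protease gene Mcpt8. The annotated Prtn3 gene overlaps the neighbouring Plppr3 by 158 bases; the library kit named in the study's methods keeps strand, but the strand setting of the counting is not given in the sources used here, so to which gene reads in the overlap were assigned is not known.

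The upstream sequences are shown because the 3 genes had a like pattern over the groups and share a short motif there. RefSeq promoter windows on GRCm38.p6 were matched for 3 of 3 genes, and the bases before the first GENCODE exon base in each window are printed from 5′ to 3′ on the strand of the gene, with the letters AGGAAGT, the core bound by ETS factors such as PU.1, in capitals. The windows are chr11:87793534-87793580 for Mpo (47 bases, plus strand), chr10:79879417-79879613 for Prtn3 (197 bases, plus strand) and chr14:56102575-56102824 for Ctsg (250 bases, minus strand).
Mpo: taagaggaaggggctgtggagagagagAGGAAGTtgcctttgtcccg
Prtn3: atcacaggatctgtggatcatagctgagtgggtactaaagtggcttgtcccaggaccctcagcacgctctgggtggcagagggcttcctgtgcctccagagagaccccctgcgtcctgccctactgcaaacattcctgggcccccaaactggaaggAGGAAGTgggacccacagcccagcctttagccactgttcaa
Ctsg: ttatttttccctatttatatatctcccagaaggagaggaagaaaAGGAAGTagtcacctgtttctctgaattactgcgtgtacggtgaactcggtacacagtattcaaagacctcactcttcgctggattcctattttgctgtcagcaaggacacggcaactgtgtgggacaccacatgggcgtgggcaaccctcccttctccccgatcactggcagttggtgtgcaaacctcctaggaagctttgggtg
RefSeq places the start of Prtn3 5191 bases further into the gene than GENCODE does. Over the 250 bases before the RefSeq start, AGGAAGT began 223 bases before the start of Mpo, 94 before that of Prtn3 and 206 before that of Ctsg, and 84 bases before that of Elane. Searched on both strands, these letters were in 7.69% of 32851 windows of the same length. The MYB core AACNG was found 1 time for Mpo and 3 times each for Prtn3 and Ctsg, but 74.2% of all windows held it. The C/EBP motif TTGCNNAA, present in 9.56% of windows, was in none of the 3. The RUNX motif TGTGGT was in the Ctsg window, as in 14.0% of windows, and TATAA was 32 bases before the start of Prtn3 and, on the opposite strand, 236 bases before that of Ctsg, as somewhere on either strand in 22.8% of windows. These matches are letters in a window, not measured binding, and AGGAAGT was chosen after the windows had been read.

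Each deposited table compares a pair of groups and is limited to genes past the authors' screen and gives a normalized count per library, that is, reads over the size factor of that library. Reads on listed genes lay between 1602317 and 2070442 per library for M-EPCs and F-EPCs (2093 genes), between 707791 and 923145 for M-EPCs and OVX-EPCs (1317 genes) and between 454298 and 468833 for F-EPCs and OVX-EPCs (811 genes); other genes were not analysed here, so the total depth is unknown. Mpo, Prtn3 and Ctsg are listed in both tables with M-EPCs and not in that of F-EPCs and OVX-EPCs. OVX-EPC-2 stood further from the other libraries of its group, with a chi-square per degree of freedom over listed genes of 6.36 and 7.75, against 3.25 between OVX-EPC-1 and OVX-EPC-3. In the table of F-EPCs and OVX-EPCs the F-EPC libraries differed most, with 29.8 and 18.0 for pairs with F-EPC-1 and 9.33 for F-EPC-2 and F-EPC-3. As a check of the cell label, 5 of 10 endothelial markers are listed between M-EPCs and F-EPCs: Pecam1, which encodes the sorted antigen CD31, was higher in M-EPCs, and 4, among them Kdr, Tie1 and Vwf, were lower. The other 5 endothelial markers were not analysed here. Of 7 promyelocyte markers, the first M-EPC table lists 4 and the second, with OVX-EPCs, 5, the 3 genes among them.

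Mpo, Prtn3 and Ctsg were close to absent in M-EPCs and present in F-EPCs and OVX-EPCs. The 9 M-EPC values of the 3 genes together rested on 14 reads, and M-EPC-3 had no read of any of them. Levels are normalized counts of the table named, and since the tables were normalized separately, OVX-EPC levels are set against F-EPC levels only on a scale built from the size factors of shared libraries.

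Mpo had 2, 7 and 0 reads in M-EPC-1, M-EPC-2 and M-EPC-3. In the same order, the F-EPC libraries held 62, 62 and 86 reads and the OVX-EPC libraries 154, 78 and 127. Every F-EPC and OVX-EPC library was above every M-EPC library, and the highest M-EPC library, M-EPC-2, has a 95% exact Poisson interval of 2.81 to 14.4 reads. In the table of M-EPCs and F-EPCs the respective levels were 2.73 ± 3.22 and 68.1 ± 11.7 normalized counts (SD, n = 3 each). In that of M-EPCs and OVX-EPCs it was 2.79 ± 3.30 and 114.8 ± 38.0 (SD, n = 3 each). By summed reads over size factors, Mpo was 22.7 times as high in F-EPCs as in M-EPCs (95% counting interval 11.8 to 50.4) and 37.3 times in OVX-EPCs (19.5 to 82.3). Without M-EPC-2, the ratios were 64.4 and 105.7 over 2 M-EPC reads. The fitted log2 difference, M-EPC minus the other group on log2 of the normalized count plus 1, was -4.63 (SE 0.73) for the F-EPC table and -5.31 (SE 0.75) for the OVX-EPC table.

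For Prtn3 the M-EPC libraries held 1, 2 and 0 reads, in the order of their numbers. The F-EPC libraries had 16, 40 and 17 reads and the OVX-EPC libraries 35, 13 and 34. M-EPCs did not overlap either group, while F-EPC-2 stood high among the F-EPCs and OVX-EPC-2 low among the OVX-EPCs. Means were 0.916 ± 0.899 normalized counts in M-EPCs against 23.7 ± 13.05 in F-EPCs, and 0.937 ± 0.919 against 26.3 ± 12.1 in OVX-EPCs (SD, n = 3 each). The ratio to M-EPCs was 23.7 for F-EPCs (7.80 to 117.7) and 25.6 for OVX-EPCs (8.45 to 126.6), wide because M-EPCs had 3 reads in all. Without M-EPC-2, which held 2 of them, the ratios were 44.8 and 48.3. The fitted log2 differences were -3.69 (SE 0.52) and -3.81 (SE 0.54).

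For Ctsg the M-EPC libraries held 1, 1 and 0 reads. The F-EPC libraries held 25, 15 and 23, and the OVX-EPC libraries 23, 48 and 38. Here OVX-EPC-2 was the highest of all 9 libraries and F-EPC-2 the lowest outside the M-EPCs. Means were 0.617 ± 0.535 normalized counts in M-EPCs against 20.5 ± 5.47 in F-EPCs, and 0.631 ± 0.547 against 34.7 ± 11.7 in OVX-EPCs (SD, n = 3 each). The ratio to M-EPCs was 30.7 for F-EPCs (8.16 to 259.1) and 51.0 for OVX-EPCs (13.8 to 426.6). The fitted log2 differences were -3.76 (SE 0.34) and -4.46 (SE 0.38).

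**Figure D1:**
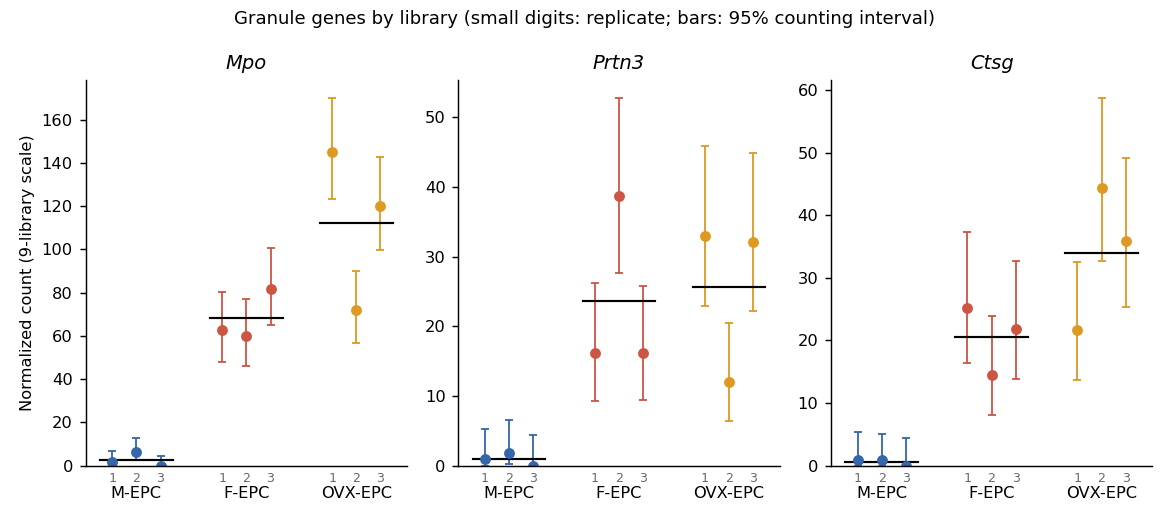
Normalized counts of Mpo, Prtn3 and Ctsg in each of the 9 libraries on 1 scale, by group; points are libraries with their 95% counting interval, small digits are replicate numbers and black lines are group means. The M-EPC libraries lie at or near 0 for all 3 genes, and OVX-EPC-2 is the lowest OVX-EPC library for Mpo and Prtn3 and the highest for Ctsg.

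By limma's adjusted p under 0.05 and a log2 difference of at least 1 in size, 49.3% of the genes listed against F-EPCs and 58.0% of those listed against OVX-EPCs were called lower in M-EPCs. The authors' screen had selected these genes on the same libraries, and Mpo, Prtn3 and Ctsg were chosen on these values too, so their calls are not given. Every M-EPC library lay below every other library for all 3 genes in both tables, as for 49.6% and 58.0% of the listed genes. Among the log2 differences of the 2093 genes listed against F-EPCs, Mpo was 40th from the lowest, Ctsg 95th and Prtn3 105th. Among the 1317 genes listed against OVX-EPCs, Mpo was 38th, Ctsg 84th and Prtn3 138th. The added 1 understates the difference of genes with few reads, and the counting intervals of the 3 ratios overlap. The screen kept genes with a change of a set size, so the listed differences leave a gap around 0.

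**Figure D2:**
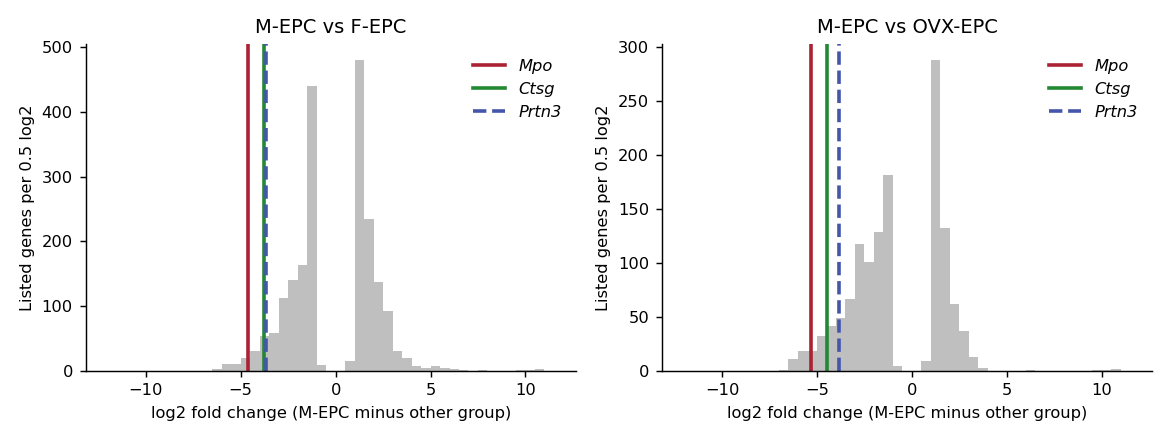
Histograms of the log2 difference (M-EPC minus the other group, bins of 0.5) of all genes listed in the tables of M-EPCs with F-EPCs and with OVX-EPCs, with lines at Mpo, Ctsg and Prtn3. The 3 genes lie in the lower tail of both, at -4.63, -3.76 and -3.69 in the left panel and at -5.31, -4.46 and -3.81 in the right.

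Levels of different genes can be compared only per length. On the scale of all 9 libraries and per kilobase of exon (2.904 kb for Mpo, 1.025 for Prtn3, 1.002 for Ctsg and 0.984 for Elane), F-EPCs had 23.4 ± 4.04 normalized counts of Mpo, 23.1 ± 12.7 of Prtn3 and 20.5 ± 5.46 of Ctsg (SD, n = 3). The 3 genes did not differ in F-EPCs beyond the spread between libraries. In OVX-EPCs the levels per kilobase were 38.7 ± 12.8 for Mpo, 33.9 ± 11.4 for Ctsg and 25.1 ± 11.6 for Prtn3, again within the spread. Elane, another neutrophil serine protease, had 6.70 ± 5.81 in F-EPCs and 27.8 ± 14.5 in OVX-EPCs. All 4 genes were below 1 normalized count per kilobase in the M-EPC means.

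Within F-EPCs and OVX-EPCs the shares of the 3 genes varied between libraries. Of the reads of the 3 genes in a library, Mpo took between 53.0% and 68.3% in F-EPCs and between 56.1% and 72.6% in OVX-EPCs. Prtn3 took 34.2% in F-EPC-2 (95% Wilson interval 26.2% to 43.2%), against 15.5% (9.79% to 23.8%) in F-EPC-1 and 13.5% (8.60% to 20.5%) in F-EPC-3. Ctsg took 34.5% in OVX-EPC-2 (27.1% to 42.8%), against 10.8% (7.34% to 15.8%) in OVX-EPC-1 and 19.1% (14.2% to 25.1%) in OVX-EPC-3. These libraries were picked after their values were seen. The intervals cover counting error only, and all pairs of libraries of a group differed by more than counting error over the listed genes. Elane had 12, 42 and 34 reads in the OVX-EPC libraries and so was highest in OVX-EPC-2, like Ctsg and unlike its neighbour Prtn3. In F-EPCs it had 10, 10 and 0 reads.

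**Figure D3:**
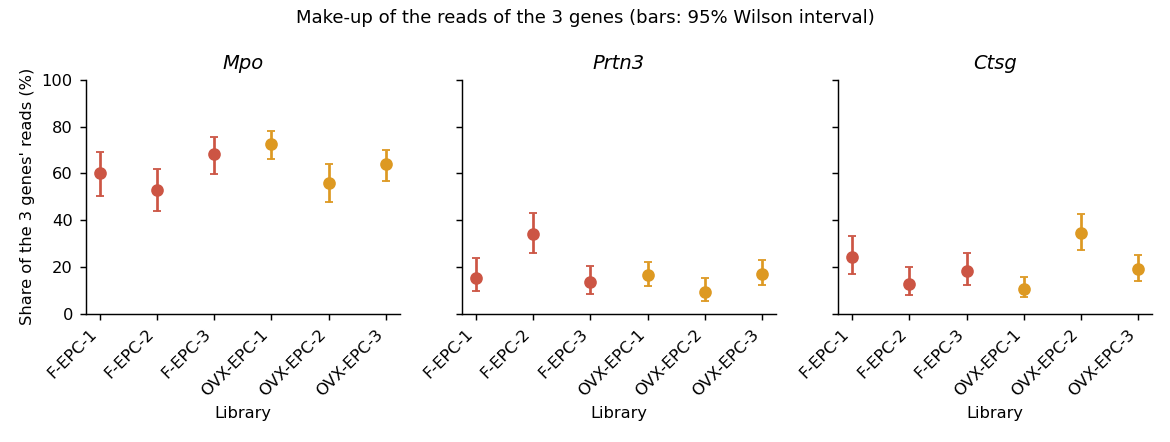
Share of the reads of the 3 genes that each gene took, in percent, in each F-EPC (red) and OVX-EPC (orange) library, with the 95% Wilson interval. Prtn3 stands high in F-EPC-2 at 34.2% and Ctsg in OVX-EPC-2 at 34.5%.

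Over all 9 libraries Pearson's r of log2 of the normalized count plus 1 was 0.97 for Mpo and Prtn3, 0.96 for Mpo and Ctsg and 0.91 for Prtn3 and Ctsg. Over the 6 F-EPC and OVX-EPC libraries alone the same values were 0.41, 0.20 and -0.56. Both sets are descriptions over libraries that share groups, and the first includes the gap between M-EPCs and the rest. Among 1287 other genes with a value in each of the 9 libraries, zeros included, those most like Mpo included Pde3a, a cyclic nucleotide phosphodiesterase (r = 0.990), and F2r, a thrombin receptor (0.985). Those most like Prtn3 were Ubash3a (0.978), Cd209a (0.976) and Slc35d3 (0.974), and those most like Ctsg were Clca3a1 (0.992), Tmem154 (0.991) and the platelet glycoprotein gene Gp5 (0.991).

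F-EPCs and OVX-EPCs overlapped for each of the 3 genes. With the size factors of the table of these groups, Mpo stood at 70.6 ± 12.2 normalized counts for F-EPCs against 116.8 ± 38.8 for OVX-EPCs, Prtn3 24.5 ± 13.5 against 26.7 ± 12.4, and Ctsg 21.3 ± 5.69 and 35.3 ± 11.8 (SD, n = 3 each). M-EPCs had the lowest mean for all 3, and F-EPCs and OVX-EPCs were not separated beyond their spread. Of 684 genes outside that table with a value in each of the 6 libraries, zeros included, 39.2% did not overlap. The log2 difference, F-EPC minus OVX-EPC, was -0.67 (SE 0.33) for Mpo, -0.11 (SE 0.61) for Prtn3 and -0.68 (SE 0.37) for Ctsg, beside a median of -0.55 over all 1495 genes with a value in each of these libraries. By reads, the ratio of OVX-EPC to F-EPC was 1.65 for Mpo (95% counting interval 1.38 to 1.96), 1.08 for Prtn3 (0.779 to 1.50) and 1.67 for Ctsg (1.21 to 2.31). Size factors recomputed on the 811 listed genes, which were selected on this contrast, moved the median of those genes by 1.12 to 1.13 toward F-EPCs. Reads over those size factors turned the log2 differences to between 0.44 and 0.45 for Mpo, 0.96 and 0.97 for Prtn3 and 0.40 and 0.41 for Ctsg, and F-EPCs and OVX-EPCs then did not overlap for Prtn3. No direction between these groups is therefore given for the 3 genes.

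The ratios of OVX-EPCs to F-EPCs without single libraries use the size factors of the table of these groups. The recomputed size factors turned the differences of Mpo, Prtn3 and Ctsg the other way, so these ratios give no direction. Without OVX-EPC-2, Mpo was 137.9 normalized counts in OVX-EPCs, 1.95 times the F-EPC mean and with no overlap. Prtn3 was then 1.38 times and Ctsg 1.41 times, both with overlap. Mpo also did not overlap without F-EPC-3 (1.84 times), nor did Ctsg without OVX-EPC-1 (1.96 times). The Prtn3 ratio was 1.60 without F-EPC-2 and between 0.934 and 0.953 without F-EPC-1, F-EPC-3, OVX-EPC-1 or OVX-EPC-3. Without F-EPC-1, Mpo was 1.59 times and Ctsg 1.87 times as high in OVX-EPCs, with overlap. The fitted Mpo differences from M-EPCs moved by more than 1.5 times without single M-EPC libraries. Against F-EPCs its log2 difference was -5.33 without M-EPC-2 and -3.89 without M-EPC-3, and against OVX-EPCs it was -6.02 and -4.57. Without OVX-EPC-2, the log2 differences of M-EPCs from OVX-EPCs were -5.60 for Mpo, -4.27 for Prtn3 and -4.24 for Ctsg.

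The other primary granule genes did not all follow the 3 genes. Of 12 genes on this list, 6 are listed for M-EPCs against F-EPCs, among them Mpo, Prtn3 and Ctsg. Of the other 3, 1 was called lower in M-EPCs and 2 higher, with a median log2 difference of 1.16 beside -0.99 over all 2093 listed genes, of which 1031 were called lower and 1012 higher. The granulocyte-monocyte progenitor gene Ms4a3 had no read in M-EPCs, 4, 4 and 6 in F-EPCs and 5, 11 and 7 in OVX-EPCs. Against a floor of 3 reads per library, F-EPCs were at least 1.49-fold higher and OVX-EPCs at least 2.35-fold higher. Cst7, which encodes cystatin F, an inhibitor of the cathepsins that process granule proteases, went the other way, at 127.7 ± 8.68 normalized counts in M-EPCs against 38.4 ± 9.56 for F-EPCs (log2 difference 1.73, SE 0.20). Srgn, which encodes serglycin and is used by many blood cells, was also higher in M-EPCs, at 1527 ± 74.5 against 685.6 ± 86.2 (log2 difference 1.16, SE 0.13).

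Against OVX-EPCs, 3 of the 12 primary granule genes are listed besides Mpo, Prtn3 and Ctsg. Elane and Ms4a3 were called lower in M-EPCs and Cst7 higher (log2 difference 1.57, SE 0.25). Their median was -3.00, beside -1.26 over all 1317 listed genes, of which 764 were called lower and 537 higher. This median is the value of Ms4a3, which had no read in M-EPCs, so its size depends on the added 1. Elane is listed here and not against F-EPCs. It had 1 read in M-EPCs in all, in M-EPC-1, and 28.0 ± 14.6 normalized counts in OVX-EPCs (log2 difference -4.36, SE 0.53). Elane is the only primary granule gene listed between F-EPCs and OVX-EPCs, at 6.84 ± 5.92 and 28.4 ± 14.8 normalized counts, and limma did not call it there (log2 difference -2.39, SE 1.09, Benjamini-Hochberg adjusted p = 0.0738). This difference was -2.98 without F-EPC-1 and -1.22 without F-EPC-3.

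Of 12 genes that process or inhibit such proteases or encode protease-activated receptors, 4 are in the F-EPC table and 3 in the OVX-EPC table. Ctsc, which encodes the cathepsin C that activates these proteases and is broadly used in the lysosome, had its higher level in M-EPCs, at 37111 ± 828.0 against 18415 ± 907.3 normalized counts for F-EPCs (log2 difference 1.01, SE 0.09, and 0.99 without M-EPC-3 or 0.97 without F-EPC-3). Serpinb1a, an intracellular inhibitor of neutrophil serine proteases, was lower in M-EPCs, at 3.60 ± 1.84 against 32.9 ± 2.51 in F-EPCs and 3.68 ± 1.88 against 32.6 ± 13.7 in OVX-EPCs (log2 differences -2.95 and -2.83). Serpina3g, a serpin of hematopoietic cells, was higher in M-EPCs, by 5.46 against F-EPCs and by 3.22 against OVX-EPCs on the log2 scale, and between F-EPCs and OVX-EPCs it was called with a log2 difference of -2.25. F2r, the receptor gene among them, was lower, with log2 differences of -4.11 and -4.32.

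Of 14 transcription factors and growth factor receptors of the granulocyte lineage, Myb alone is listed against F-EPCs, and Myb and Gfi1 against OVX-EPCs. Myb, which encodes c-Myb of immature blood cells, was 12.4 ± 3.62 normalized counts in M-EPCs against 57.4 ± 20.0 for F-EPCs (log2 difference -2.09, SE 0.35), and its log2 difference against OVX-EPCs was -2.61 (SE 0.25). Gfi1, a repressor in granulocyte development, was 1.43 ± 1.27 in M-EPCs and 11.8 ± 0.401 in OVX-EPCs (log2 difference -2.58, SE 0.48). Cebpa, Cebpe and Spi1 are in none of the tables and were not analysed here.

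Among 14 paralogs from the gene clusters of Mpo and Ctsg, Epx and Mcpt8 are listed in both tables with M-EPCs. Both were called lower in M-EPCs, as were 49.3% of all genes listed against F-EPCs and 58.0% of those listed against OVX-EPCs. Epx was not called against F-EPCs without F-EPC-1 or any 1 M-EPC library (limma adjusted p between 0.0565 and 0.0681). Mcpt8, a basophil protease, had no read in any M-EPC library, and its F-EPC level of 52.2 ± 9.90 and OVX-EPC level of 75.1 ± 14.5 normalized counts lay at least 17.1-fold and at least 24.1-fold higher than the floor of 3 reads. Epx, the eosinophil peroxidase, had no read in M-EPCs, 3, 15 and 1 in F-EPCs 1 to 3, and 12, 22 and 4 in OVX-EPCs 1 to 3. OVX-EPCs were at least 3.87-fold higher, or at least 2.48-fold without OVX-EPC-2. No bound is given for F-EPCs, since without F-EPC-2 their mean of 1.99 normalized counts lay below the M-EPC floor of 3.05. Of the other neighbouring genes, Tspoap1, 7653 bases before Mpo, is in 2 of the tables, and Lpo, Cfd and Gzme, beside Mpo, Elane and Ctsg, are in none.

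Genes of the later granules and of mature neutrophils were examined beside the 3 genes. Of 20 such genes, 13 are listed between M-EPCs and F-EPCs, 12 called lower in M-EPCs and 1, the formyl peptide receptor gene Fpr2, higher (log2 difference 1.30), with a median of -2.30, beside 49.3% of all genes of that table called lower and a median of -0.99. The log2 differences of the lower ones were -4.70 for S100a9, -3.65 for Ltf, -3.64 for Lcn2, -3.47 for Cd177, -2.30 for S100a8, -2.23 for Mmp8, -2.10 for Ngp, -1.79 for Padi4, -1.40 for Chil3 and -1.23 for Anxa1. Some rested on single libraries: Ltf was -2.69 and Lcn2 -4.75 without M-EPC-3, Lcn2 was -2.97 without M-EPC-2, and Cd177 was -4.26 without F-EPC-3. Cxcr2, a chemokine receptor gene, and Itgb2l, an integrin gene, had no read in M-EPCs and were at least 9.53-fold and at least 3.65-fold higher in F-EPCs. Against OVX-EPCs 8 are listed, 5 called lower and 3 (Chil3, Fpr1 and Fpr2) higher in M-EPCs, with a median of -1.32, beside 58.0% of all genes called lower and a median of -1.26. The lower ones were Ltb4r1 (-2.20), Padi4 (-1.67), Mmp8 (-1.59), Ngp (-1.05, and not called without M-EPC-1, OVX-EPC-2 or OVX-EPC-3) and Cxcr2, at least 4.53-fold higher in OVX-EPCs (at least 2.77-fold without OVX-EPC-3), and the log2 differences of the higher ones were 2.13 for Fpr2, 1.96 for Fpr1 and 1.49 for Chil3. Between F-EPCs and OVX-EPCs 10 are listed, and limma called 9 higher and 1 lower in F-EPCs, beside 250 higher and 546 lower among the 811 listed genes. These 10 were selected on that contrast, and the recomputed size factors move listed genes in general toward F-EPCs, with 63.1%, 63.0% and 67.1% of the calls over all genes then higher in F-EPCs (TMM, RLE and DESeq2), against 31.4% before. Ltf, which encodes lactoferrin of the specific granules, was 109.5 ± 24.8 normalized counts in F-EPCs against 5.21 ± 2.50 for OVX-EPCs (log2 difference 4.21, SE 0.35). S100a9, a subunit of calprotectin, was 138.7 ± 24.1 and 14.0 ± 4.18 (log2 difference 3.24, SE 0.25), and Lcn2, which encodes lipocalin 2, was 93.5 ± 26.3 and 10.1 ± 5.06 (log2 difference 3.15, SE 0.40). Chil3 was 149.1 ± 8.05 and 20.0 ± 7.76 (log2 difference 2.90, SE 0.27). The log2 differences of the others were 3.26 for Itgb2l, 2.78 for Cd177, 2.76 for S100a8, 1.09 for Fpr1, 1.05 for Ngp and -1.32 for Ltb4r1, which encodes a leukotriene receptor. With the recomputed size factors Ltb4r1 was -0.25, and its F-EPC and OVX-EPC values then overlapped. Cd177 overlapped between the groups (SE 1.04, limma adjusted p = 0.0402). It was 3.57 without F-EPC-3, 3.66 without OVX-EPC-3 and 2.09 without OVX-EPC-1, and was not called without any 1 of F-EPC-1, F-EPC-2, OVX-EPC-1 and OVX-EPC-2. Fpr1 and Ngp were just past a difference of 1. Fpr1 was 0.98 without F-EPC-2, and Ngp was 0.97 without F-EPC-3 or OVX-EPC-1 and just under 1 without OVX-EPC-2.

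With the genes outside the table included, 14 later granule genes have a value in each of the 6 libraries, zeros included, and 13 had the higher mean in F-EPCs, with a median log2 difference of 1.99. With the size factors of the table, the 6 primary granule genes had a median of -0.60, or -0.53 without Mpo, Prtn3 and Ctsg, and all 6 had the higher mean in OVX-EPCs, as had 1022 of the 1495 genes. With the recomputed size factors 5 of the 6 had the higher mean in F-EPCs, with a median between 0.43 and 0.44, and Elane remained higher in OVX-EPCs (-1.51). Of the later granule genes, 13 of 14 were higher in F-EPCs with each set of size factors. The recomputed size factors moved the median of the 811 listed genes by 1.12 to 1.13 toward F-EPCs. The share of the 1495 genes that was higher in F-EPCs with them was not computed. The difference between the lists was not tested, since 10 of the 14 later genes were selected on the contrast. For the 4 that were not, the size factors of the table gave log2 differences of 0.64 for Mmp8, 0.82 for Fpr2, 1.23 for Cxcr2 and 0.11 for Padi4. Mmp8 and Fpr2 then did not overlap and Cxcr2 and Padi4 did, beside 39.2% of the genes outside that table without overlap. With the recomputed size factors none of the 4 overlapped, and the share over all genes was not computed.

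**Figure D4:**
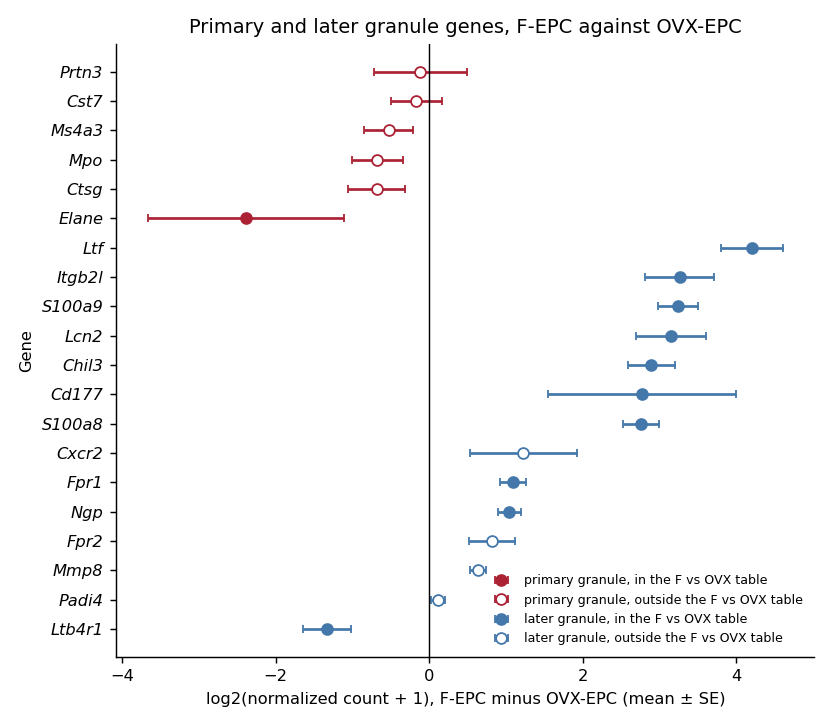
Log2 difference, F-EPC minus OVX-EPC, with its standard error over 3 libraries per group, for 6 primary granule genes (red) and 14 later granule genes (blue); filled points are genes in the table of this comparison. With the size factors of the table, the primary granule genes lie below 0, from -2.39 for Elane to -0.11 for Prtn3, and the later granule genes, apart from Ltb4r1 at -1.32, lie above 0. With the recomputed size factors, not plotted, the primary granule genes other than Elane lie above 0.

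Listed markers of other blood cells were lower in M-EPCs, in tables where 49.3% (against F-EPCs) and 58.0% (against OVX-EPCs) of all genes were called lower. All 7 listed of 9 mast cell and basophil markers were called lower, and their summed level was 2.39 to 30.5 normalized counts in M-EPC libraries against 524.9 to 540.2 in F-EPC libraries, and 2.44 to 31.2 against 756.2 to 888.6 in OVX-EPC libraries, with Mcpt8 at 0 in every M-EPC library. The 4 listed of 5 megakaryocyte markers summed to between 1031 and 1091 against 7182 to 7629 in F-EPCs, and to between 1053 and 1116 against 8576 to 9197 in OVX-EPCs. The 3 listed of 10 monocyte and macrophage markers summed to between 196.1 and 296.4 against 838.8 to 930.0 in F-EPCs, and to between 200.2 and 303.1 against 1413 to 1630 in OVX-EPCs. Of the 6 dendritic cell markers, 4 are listed against F-EPCs (summed 0.898 to 3.81 against 126.9 to 166.6) and 5 against OVX-EPCs (1151 to 1264 against 2782 to 3120), all lower in M-EPCs. Without Itgax, which took most of that sum, the 4 others summed to between 0.918 and 3.90 against 123.3 to 147.6. Of the 6 lymphocyte markers, 4 are listed against F-EPCs (29.6 to 39.0 against 132.7 to 170.7) and 6 against OVX-EPCs (2049 to 2312 against 8445 to 9297), all lower in M-EPCs. Without Cd4, which took most of that sum, the 5 others summed to between 34.0 and 40.9 against 260.5 to 290.0.

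The 4 listed of 8 stem and progenitor markers summed to between 43.0 and 51.4 in M-EPCs against 226.2 to 278.7 in F-EPCs, and to between 44.0 and 52.6 against 345.8 to 366.9 in OVX-EPCs. The listed endothelial markers summed to between 795.1 and 833.4 against 2931 to 2971 in F-EPCs, and the 4 listed against OVX-EPCs to between 318.7 and 351.8 against 3763 to 4107. Vwf took most of these sums outside M-EPCs. Without it, the 4 others, Pecam1 among them, summed to between 565.5 and 589.1 in M-EPCs against 562.1 to 626.5 in F-EPCs, which overlap, and the 3 others to between 84.2 and 102.3 against 489.1 to 561.6 in OVX-EPCs. The sums of the blood cell and progenitor lists, each without its most abundant gene, lay lower in every M-EPC library than in every library of the other group. Every listed gene of these lists had passed the authors' screen and was called lower in M-EPCs, so these sums are no further check. The lists also share genes: Gata2 is on the progenitor and mast cell lists and Flt3 on the progenitor and dendritic cell lists. No erythroid marker is listed. The part of each cell type in the differences of Mpo, Prtn3 and Ctsg was not tested.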

How the data were processed

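RNA-seq of 9 mouse EPC libraries was analysed, 3 libraries per group, grouped by the sample titles. The sources name HISAT2, Cuffquant and Cuffnorm, and DEseq for the comparisons; the submitters' processing notes also name Cufflinks, DESeq and mm10. The authors deposited a table per comparison, holding only genes past their screen; in it the deposited signal is a normalized count, which the authors made by dividing reads by a size factor set for each library and table. Whole reads were recovered for 100% of values (tolerance 0.01), identical between tables for 807, 435 and 292 shared genes. The tables' own fold changes, p-values and gene annotations were not used.

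Limma 3.58.1 (R 4.3.3) was fitted per table to log2(normalized count + 1), with a filter on a group mean of at least 1 and p-values adjusted by Benjamini-Hochberg over all genes of the table. Genes were called at an adjusted p under 0.05 and a log2 difference of at least 1 in size. The design had foreseen this unit. Values of all 9 libraries used the size factors of the M-EPC and F-EPC table, with those of OVX-EPCs multiplied by 1.02 from the shared M-EPC libraries. Ratios of reads have exact 95% intervals and shares have Wilson intervals (SciPy 1.17.1); these and the floor of 3 reads per library cover counting error only. No library pair of a group agreed within sampling noise. The study calls the libraries biological replicates but does not say whether they were separate animals or cultures, so p-values measure the spread between these samples. The smallest p of an exact permutation test of 3 against 3 is 0.1.

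The 3 genes and the gene lists were chosen with earlier results of these data known. Named were the 3 genes in every library, every listed gene of the granule, paralog, maturation and regulator lists, other lists by count with at most 4 examples, and the 3 genes most correlated with each member, of which 1 is not reported here. On simulated data with 200 genes changed 4-fold, limma recovered 200 of 200 in each table, with 5 false calls (M-EPC and F-EPC), 2 (M-EPC and OVX-EPC) and 2 (F-EPC and OVX-EPC). The changed genes were drawn from genes with higher mean levels, and every gene had the same fixed dispersion. The simulation therefore does not show how limma performs on genes with few or no reads in a group, such as Mpo, Prtn3 and Ctsg in M-EPCs. Alternatives were a pseudocount of 0.1, a filter at 10 or none, a replicate block, leaving out each library, and edgeR 4.0.16 and DESeq2 1.42.0 on recovered reads. Leaving out libraries and recomputing size factors for the F-EPC and OVX-EPC differences, the lists and marker sums with genes left out, and bounds, read ratios and named genes without each library were chosen after seeing the data. Figures used matplotlib 3.10.9.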

Additional observations from a re-analysis of the deposited data

How the results depend on the processing

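The log2 differences of Mpo, Prtn3 and Ctsg are given over 15 alternatives per comparison as a range only, since the genes were chosen on these values and had passed the authors' screen. Against F-EPCs they ranged from -5.96 to -3.89 for Mpo, -5.22 to -3.28 for Prtn3 and -5.41 to -3.45 for Ctsg; against OVX-EPCs from -6.65 to -4.56, -5.34 to -3.40 and -6.12 to -4.14. The number of listed genes called between F-EPCs and OVX-EPCs was 796, but 404 with edgeR's TMM, 405 with its RLE and 380 with DESeq2's own size factors, which raised the median log2 difference by 1.12 to 1.13. With the authors' size factors on the recovered reads, edgeR called 2089, 1315 and 810 genes in the 3 tables and DESeq2 2093, 1317 and 811. Between F-EPCs and OVX-EPCs the share of calls higher in F-EPCs went from 31.4% to 63.1%, 63.0% and 67.1%. Against F-EPCs, RLE and DESeq2 lowered the median by 0.35 and took the share higher in M-EPCs from 49.5% to 38.6% and 37.2%, and against OVX-EPCs DESeq2 raised it by 0.63 and took that share from 41.3% to 52.6%.

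The groups share replicate numbers. The deviations of same-numbered libraries had r between -0.04 and 0.12, and those of libraries with different numbers between -0.10 and 0.06. Such values do not show whether same-numbered libraries were prepared together. With a replicate block, 2003, 1288 and 781 listed genes were called in the 3 tables, against 2043, 1301 and 796 without it, and the log2 differences of Mpo, Prtn3 and Ctsg were -4.63, -3.69 and -3.76 against F-EPCs and -5.31, -3.81 and -4.46 against OVX-EPCs. Depth limits the M-EPC side: with 14 reads of the 3 genes over its libraries, differences among the 3 genes within M-EPCs were not detectable.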
